A study of Homo sapiens with 9 samples.

Results

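The later phase of the response of 143B cells to XD23 was examined by setting 48 h of exposure against 24 h. 143B is an established human osteosarcoma cell line, and XD23 is a compound that the labels give only as a code name. The 24 h group and the 48 h group both received 0.5 µM XD23 and held 3 libraries each, so the comparison rests on 6 of the 9 libraries of the series. The other 3 libraries are the control, taken as 0 h. Their mean is given as the level before the compound for genes whose 24 h and 48 h libraries are printed one by one. Both exposure groups therefore share the line, the compound and the dose, and differ in time with the compound. No vehicle is named, nor are untreated cells taken at the later times, so time with the compound and time in culture cannot be told apart. Whether the 3 libraries of a group stem from separate cultures is not stated, and the p-values then measure only the spread between these libraries, which may be technical.

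Levels are given in FPKM, which scales fragments to the length of the gene and the depth of the library. Genes that reached 1 FPKM in 3 or more of these 6 libraries were kept, which left 13142 genes. A gene under 1 FPKM throughout either group was thus tested only through its high values in the other group. Such genes include DEPP1, EGR3, DUSP10, CSF2 and LUCAT1, under 1 FPKM at 24 h, and SNAP25, under 1 FPKM at 48 h. Their calls, and their part in the counts of lists, are in part set by the filter. Differences are log2 fold changes of FPKM + 1, written 48 h minus 24 h with their standard errors. The added 1 makes the changes of genes with low levels look smaller than they were. P-values come from limma with Benjamini-Hochberg adjustment over all 13142 genes, and "rose", "fell" and "called" are used of genes with an adjusted p under 0.05.

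The Wnt pathway is described first because the series is titled for a loss of DKK1 and a gain of β-catenin activity. In that pathway Wnt ligands bind frizzled and LRP receptors, which halts the complex that marks β-catenin for destruction, and DKK1 is a secreted protein that blocks the LRP receptors. Other groups of genes described here answer to well-known transcription factors: NF-kB, which is released from inhibitor proteins such as NFKBIA and drives inflammatory genes, HIF, which is stabilised when oxygen is low, and E2F, which drives the genes of DNA replication once the retinoblastoma protein is phosphorylated. Osteosarcomas are tumours of cells that make bone matrix.

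Between 20304122 and 22901830 fragments lay behind each of the 6 libraries, in which 12910 to 13253 genes reached 1 FPKM. The third 24 h library stood apart. The median absolute log2 difference between genes was 0.0635 between the other 24 h libraries, 0.146 and 0.134 between each of them and the third, and 0.0715 to 0.087 between 48 h libraries. Levels of short, highly expressed genes were raised in it: cytosolic ribosomal protein genes (49) had a mean log2 level of 8.438, against 8.105 and 8.138 in the other 24 h libraries and 8.041 to 8.19 at 48 h. Protein-coding genes with under 1500 bases of exon averaged 4.197 in it against 4.019 and 4.026 in the other 24 h libraries. Counts for the lists of short genes below are also given without this library. Mitochondrially encoded genes took 28.75% to 29.47% of the summed FPKM in the 6 libraries.

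Few transcripts were called on the way to 24 h and many between 24 h and 48 h. Of 13142 genes, 2207 rose (16.8%) and 2236 fell (17.0%), 33.8% in all, whereas from control to 24 h 1 gene (0.00761%), the small nuclear RNA copy RNU6-548P, was called with the same number of libraries and the same median standard error of 0.072. At an unadjusted p under 0.05, 972 genes passed from control to 24 h. Most later changes were small: 3730 of the 4443 called genes (84%) moved by less than 0.5 on the log2 scale, with a median of 0.32 among those that rose and -0.30 among those that fell. Changes of at least 1 were met by 52 genes that rose and 14 that fell. Protein-coding genes were called about as often upwards (2087 of 10756) as downwards (1945), while long noncoding RNAs were called higher in 72 and lower in 175 of 1157. The 48 h values lay all above the 24 h values for 3134 genes (23.8%) and all below for 3075 genes (23.4%).

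The change from 24 h to 48 h was also tested against the change from control to 24 h in the same model. This difference was called for 1843 genes (14%), 987 with the later change higher (7.51%) and 856 with it lower (6.51%). The count was 986 without 24 h replicate 2, 1100 without 48 h replicate 2, 1174 and 1170 without control replicate 2 or 3, 965 with no filter and 4132 with array weights. The 24 h libraries enter both changes with opposite signs, so an unusual 24 h value moves them apart.

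**Figure D1:**
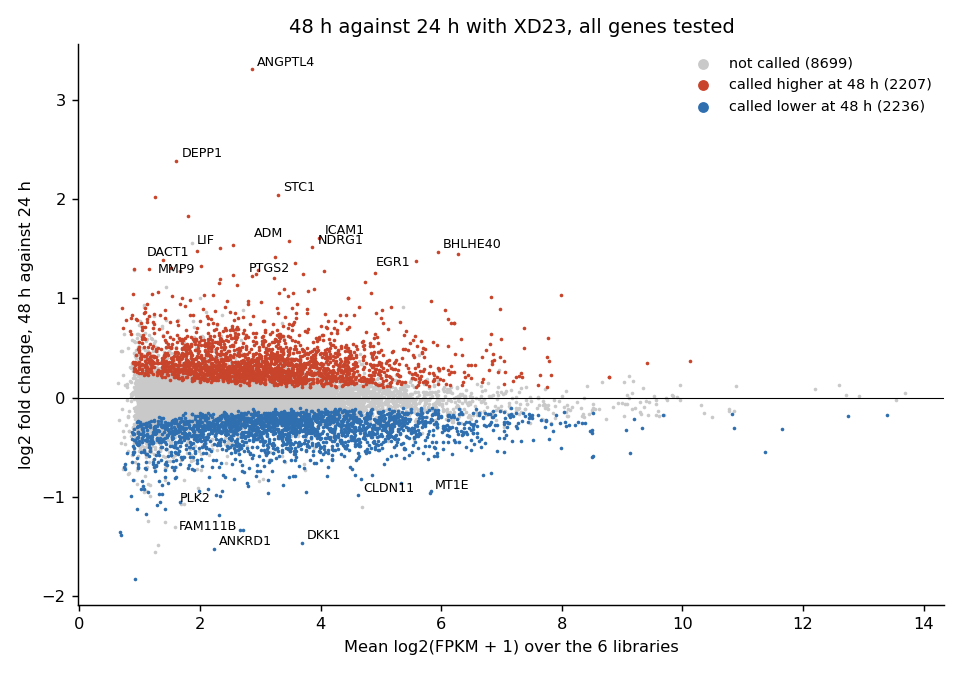
Each point is 1 of the 13142 genes, with its mean log2(FPKM + 1) over the 6 libraries on the x axis and its log2 fold change from 24 h to 48 h on the y axis. Red points (2207) rose, blue points (2236) fell, and grey points were not called. Most called genes lie close to 0, and ANGPTL4 stands highest at 3.31.

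DKK1 (ENSG00000107984, chromosome 10, 52314296 to 52318042, plus strand, GRCh38) stood at 19.8, 19.4 and 21.8 FPKM in the 24 h libraries and at 6.98, 6.72 and 6.54 FPKM at 48 h. The groups did not overlap, and every 48 h library lay far below every 24 h library. All 48 h values lay below all 24 h values in 23.4% of all genes. The mean fell from 20.3 ± 1.28 to 6.75 ± 0.223 FPKM (SD, n = 3), 3.01-fold lower, which is a log2 fold change of -1.46 ± 0.06 (adjusted p = 4.35e-06). An exact two-sided permutation test on DKK1 alone gave p = 0.1, the smallest that 3 against 3 libraries allow. Control libraries averaged 20.9 FPKM, so the level at 24 h was near that of the control (log2 change -0.04, adjusted p = 0.905), and the later change was lower than the earlier one (adjusted p = 0.000321). DKK1 was the second lowest of all named genes.

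Other Wnt genes moved both ways or were not called. Of 5 tested antagonists, DKK1 fell, while SFRP1, a secreted frizzled-like protein that binds Wnt ligands, rose by 0.41 ± 0.04 (21.6 to 29.1 FPKM) and the DKK relative DKK3 rose by 0.42 ± 0.06 (2.32 to 3.44 FPKM). KREMEN1 and KREMEN2, receptors for DKK proteins, were not called. Of 19 tested ligands and receptors, 4 rose and 1 fell. The share that rose was near the 16.8% of all genes, and the share that fell was under their 17.0%. LRP5, a co-receptor that DKK1 blocks, stood at 13.2, 13.3 and 9.75 FPKM at 24 h and at 16.8, 18 and 16.2 FPKM at 48 h, with a control mean of 12.9 FPKM. It rose by 0.47 ± 0.11 (adjusted p = 0.00935), and its lowest value lay in the third 24 h library. The ligand genes WNT7B (0.37 ± 0.06) and WNT5A (0.31) and the ligand carrier WLS (0.19) also rose, and the receptor gene FZD2 fell by 0.40 ± 0.07, from 3.60 to 2.48 FPKM.

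The β-catenin destruction complex and its nuclear partners gave 9 that rose and 1 that fell among 30 tested. Over all genes 16.8% rose and 17.0% fell. AXIN1, the scaffold of the complex, rose by 0.37 ± 0.06 (6.29 to 8.38 FPKM), as did the kinase gene GSK3B (0.21), the tankyrase genes TNKS (0.28) and TNKS2 (0.18), and TCF7L1 (0.44 ± 0.07), a TCF factor known mainly as a repressor. GSK3A, which encodes the related kinase, was the member that fell (-0.16 ± 0.04, adjusted p = 0.0232). These rises were small, the list's median was 0.09 against 0.00 over all genes, and 4 rose when the second 48 h library was left out. CTNNB1, which encodes β-catenin, stood at 34.5, 33.3 and 36.0 FPKM at 24 h and at 35.3, 36.2 and 35 FPKM at 48 h (control mean 34.5 FPKM), overlapping groups with a change of 0.04 ± 0.04 (adjusted p = 0.485).

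Of 19 tested genes commonly listed as β-catenin targets, 5 rose and 4 fell, not far from the 16.8% and 17.0% of all genes, with a median of 0.01. SNAI2, which drives mesenchymal traits, rose by 0.44 ± 0.07 (12 to 16.6 FPKM), and TCF4 (ENSG00000196628, chromosome 18) rose by 0.48 ± 0.06 (2.28 to 3.57 FPKM). TCF4 is a different gene from TCF7L2, a nuclear partner of β-catenin, which was not called (0.08 ± 0.04, adjusted p = 0.127). RUNX2, which sets the osteoblast fate, fell by 0.36 (5.66 to 4.19 FPKM), and GREM1, a secreted BMP inhibitor, fell by 0.27 (7.74 to 6.27 FPKM). DKK1, itself on this list, and FOSL1 (-0.16) were the other members that fell. CCND1 (0.01 ± 0.04, adjusted p = 0.885), LEF1 (-0.11 ± 0.05, adjusted p = 0.0955) and MYC (-0.13 ± 0.06, adjusted p = 0.104) were not called. AXIN2, a widely used target gene of β-catenin, did not pass the filter, at 0.397, 0.407 and 0.445 FPKM at 24 h and 0.407, 0.351 and 0.311 FPKM at 48 h (control mean 0.461 FPKM), on 33 to 60 fragments per library.

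**Figure D2:**
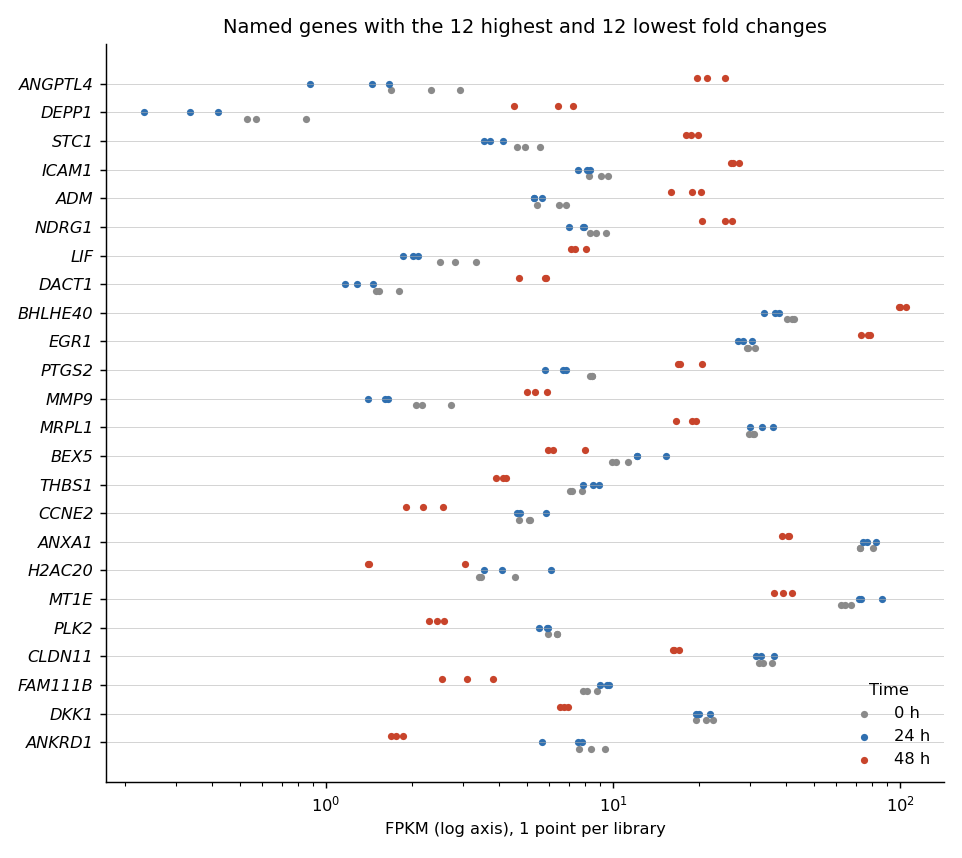
FPKM (log x axis) of the named genes with the 12 highest and the 12 lowest fold changes, 1 point per library, grey for control, blue for 24 h and red for 48 h. In each gene the 48 h points lie apart from the 24 h points, as the rule that chose these genes required. In each gene the control mean lies nearer to the 24 h mean than to the 48 h mean. In several genes that rose, among them DEPP1, LIF and MMP9, every control point lies above every 24 h point. In some that fell, among them THBS1 and FAM111B, every control point lies below every 24 h point.

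ANGPTL4, a secreted inhibitor of lipoprotein lipase induced by low oxygen and by nuclear receptors for fatty acids, showed the highest rise of the named genes. It (ENSG00000167772, chromosome 19, 8363289 to 8374373, plus strand) stood at 1.44, 0.877 and 1.66 FPKM at 24 h and at 19.7, 24.6 and 21.2 FPKM at 48 h. All 48 h libraries were far above the 24 h libraries, and also above the control mean of 2.31 FPKM. The mean was 16.5-fold higher, a log2 fold change of 3.31 ± 0.16 (adjusted p = 1.14e-05). DEPP1, a target of FOXO factors, stood at 0.421, 0.233 and 0.337 FPKM at 24 h and at 4.51, 6.41 and 7.22 FPKM at 48 h (2.39 ± 0.15, adjusted p = 2.14e-05), with a control mean of 0.652 FPKM, on as few as 15 fragments in a library. STC1, a secreted glycoprotein hormone, went from 3.73, 3.54 and 4.15 FPKM to 18, 19.7 and 18.7 FPKM (2.04 ± 0.07, adjusted p = 2.38e-06), with a control mean of 5.05 FPKM. Both control means lay above the 24 h values, although neither gene was called from control to 24 h. Neither gene overlapped between the groups, as the rule for naming the highest and lowest genes required. Next came ICAM1 (1.61), ADM (1.58), NDRG1 (1.51), LIF (1.51), DACT1 (1.48), BHLHE40 (1.47), EGR1 (1.38), PTGS2 (1.36) and MMP9 (1.33). DACT1, which binds Dishevelled and modulates Wnt signals, stood at 1.28, 1.17 and 1.46 FPKM at 24 h and at 4.72, 5.83 and 5.80 FPKM at 48 h, with a control mean of 1.61 FPKM.

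ANKRD1, a nuclear ankyrin repeat protein and a common readout of YAP activity, was the lowest of the named genes. It (ENSG00000148677, chromosome 10, 90912096 to 90921276, minus strand) stood at 7.81, 7.56 and 5.63 FPKM at 24 h and at 1.86, 1.76 and 1.68 FPKM at 48 h, and its control mean was 8.46 FPKM. The groups did not overlap, which the naming rule required, and the mean was 3.97-fold lower (-1.52 ± 0.11, adjusted p = 4.08e-05). FAM111B, a gene of a trypsin-like protease, stood at 9.53, 9.65 and 9.01 FPKM at 24 h and at 3.81, 2.53 and 3.11 FPKM at 48 h (-1.34 ± 0.10, adjusted p = 4.65e-05), with a control mean of 8.25 FPKM. Other genes of this end were the tight junction gene CLDN11 (-0.98), the kinase gene PLK2 (-0.98), ANXA1 (-0.94), which encodes the phospholipid-binding protein annexin A1, CCNE2 (-0.92), which encodes cyclin E2, THBS1 (-0.89), BEX5 (-0.88) and MRPL1 (-0.82), a protein of the mitochondrial ribosome. BEX5 was highest in the third 24 h library, and without that library its change was -0.77 ± 0.11. MT1E (-0.96) and the histone gene H2AC20 (-0.94) have near-identical copies whose reads the counting could misplace. H2AC20 also lost its call without the second 48 h library (adjusted p = 0.0536).

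NF-kB targets and cytokines rose almost as a whole. Of 25 tested members, 24 rose and none fell, against 16.8% and 17.0% of all genes, and the median change was 0.77. REL was the member that was not called (0.22). The list averaged 2.67, 2.67 and 2.736 on the log2 scale in the 24 h libraries and 3.382, 3.515 and 3.47 in the 48 h libraries. Control libraries lay at 2.807 to 2.884, a little above the 24 h libraries and well below those at 48 h. The later change was higher than the earlier one in 20 of the 25 genes, against 7.51% of all genes.

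ICAM1, an adhesion molecule that binds leukocyte integrins, led the list. It (ENSG00000090339, chromosome 19, 10270835 to 10286615, plus strand) stood at 7.55, 8.12 and 8.34 FPKM at 24 h and at 25.7, 27.5 and 26.3 FPKM at 48 h. The lowest 48 h value was more than 3 times the highest 24 h value, and the change was 1.61 ± 0.06 (adjusted p = 2.38e-06). LIF, a cytokine of the interleukin 6 family, went from 2.09, 2.02 and 1.85 FPKM to 7.12, 8.05 and 7.37 FPKM (1.51 ± 0.08). PTGS2, the inducible cyclooxygenase, went from 5.78, 6.69 and 6.87 FPKM to 16.9, 20.5 and 17.1 FPKM (1.36 ± 0.08). All 3 genes stood lower at 24 h than in the control means of 8.98, 2.89 and 8.41 FPKM, although none was called from control to 24 h.

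Among the secreted members, CXCL8 rose by 1.05 (19.0 to 40.1 FPKM), CCL2 by 1.00 (1.30 to 3.61 FPKM), IL1B by 1.00 (14.6 to 30.1 FPKM), IL11 by 0.91 (7.4 to 14.8 FPKM) and CXCL1 by 0.80 (2.49 to 4.97 FPKM). These encode chemokines and cytokines that recruit or activate immune cells. CSF2 rose by 0.90 from a low level, 0.198 to 1.24 FPKM. The genes of the pathway's own inhibitors rose too: NFKBIA, which holds NF-kB in the cytoplasm, by 1.17 (16.9 to 39.2 FPKM), TNFAIP3, a ubiquitin editor, by 0.91 (2.90 to 6.32 FPKM), and NFKBIE by 0.55 (3.06 to 4.96 FPKM). Genes of NF-kB subunits rose too, with NFKB2 at 0.77, RELB at 0.45 and NFKB1 at 0.39. BIRC3, an inhibitor of apoptosis that also acts in NF-kB signalling, rose by 1.20 (2.31 to 6.59 FPKM).

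Promoter windows are shown for a pair of these genes because the list rose together and several members carry letters read by NF-kB before their start sites. The sequences are from RefSeq (GRCh38.p14), 5′ to 3′ on the strand of the gene, 100 bases each within the 250 bases before the RefSeq start, and the capitals mark a match to GGAANTTCC on either strand.
ICAM1 (chr19:10270888-10270987, plus strand): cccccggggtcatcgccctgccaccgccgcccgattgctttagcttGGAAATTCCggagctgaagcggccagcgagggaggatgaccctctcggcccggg
NFKBIA (chr14:35404777-35404876, minus strand): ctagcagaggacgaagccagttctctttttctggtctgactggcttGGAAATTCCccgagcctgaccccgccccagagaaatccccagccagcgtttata
Both genes carry the same 9 letters, 178 bases before the start in ICAM1 and 73 bases before it in NFKBIA. A match was found in 8 of the 19 risen members with a promoter in the table (42.1%), against 0.831% of all 27305 promoters and 0.918% of the 8825 promoters of tested protein-coding genes. The motifs described here were chosen with the values known, and a match is a description of the letters, not of binding. The lists gather genes already known to answer to these factors, so their shares may be high whatever these data show.

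Immediate early factors, genes that growth factors and stress switch on within minutes, rose in 20 of 25 tested members and fell in 1. Their median was 0.47, and the shares over all genes were 16.8% and 17.0%. EGR1 (ENSG00000120738, chromosome 5, 138465490 to 138469315, plus strand), a zinc finger factor, stood at 27.2, 28.3 and 30.4 FPKM at 24 h and at 72.8, 77.0 and 78.3 FPKM at 48 h. The 48 h libraries lay far above the 24 h libraries and the control mean of 30.0 FPKM (1.38 ± 0.05, adjusted p = 2.38e-06). Its relative EGR3 rose by 0.90 ± 0.09 (0.562 to 1.91 FPKM), and the AP-1 genes JUNB (0.86), FOS (0.68), JUND (0.38), JUN (0.37) and FOSL2 (0.23) rose, while FOSL1, which encodes another AP-1 subunit, fell by 0.16 (185 to 165 FPKM). MCL1, an unstable anti-apoptotic protein, rose by 0.60 (177 to 269 FPKM).

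Against 16.8% and 17.0% of all genes, feedback genes of the ERK pathway rose in 12 of 18 tested members and fell in 2. They included HBEGF (0.77 ± 0.08), an EGF receptor ligand, the phosphatase genes DUSP10 (0.76 ± 0.12), DUSP6 (0.59) and DUSP1 (0.47), and the pathway inhibitor SPRY2 (0.58). DUSP6, which removes phosphate from ERK, stood at 64.3 FPKM at 24 h and 97.4 FPKM at 48 h. The ETS factor genes ETV4 (-0.01) and ETV5 (0.02) and SPRY4 (-0.05), also known as ERK targets, were not called, and ETV1 fell by 0.15.

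Genes of interferon responses and of antigen presentation were called upwards more often than downwards. Over all genes the shares were 16.8% upwards and 17.0% downwards. Of 16 tested type I interferon genes, 9 rose and 1 fell (median 0.22), led by DDX60 (0.78 ± 0.06, 1.34 to 3.01 FPKM), a helicase that aids sensing of viral RNA, and IFI44 (0.62 ± 0.09, 5.64 to 9.24 FPKM). ISG15, an abundant gene of this group, was not called (0.02). Of 13 tested genes of MHC class I presentation, 8 rose and 1 fell (median 0.29). CD274, which encodes the checkpoint ligand PD-L1, stood at 1.46, 1.26 and 1.51 FPKM at 24 h and at 2.90, 3.09 and 3.0 FPKM at 48 h, with a control mean of 1.93 FPKM (0.73 ± 0.08, adjusted p = 0.000255). The peptide transporter gene TAP1 rose by 0.47 ± 0.07, whereas its partner TAP2 fell by 0.28 (9.39 to 7.57 FPKM). HLA-C (0.46 ± 0.06) rose too, and its reads may be shared with related HLA genes.

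**Figure D3:**
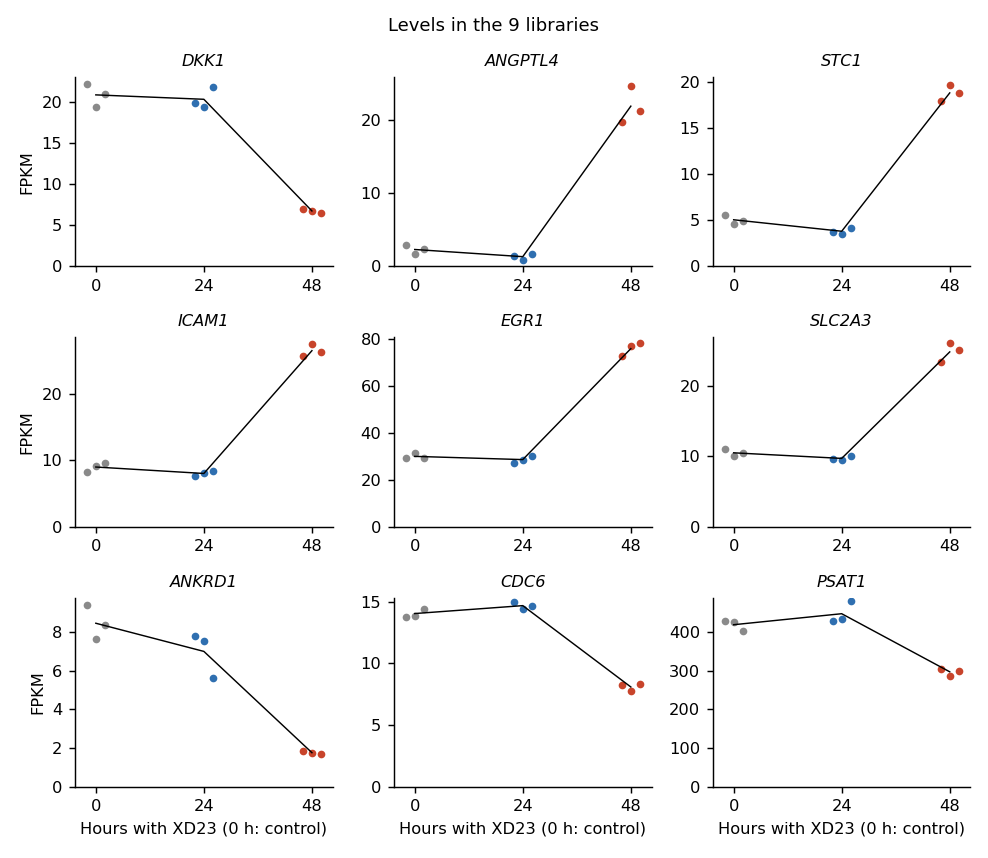
FPKM of 9 genes in every library against hours with XD23 (0 h is the control), with 1 point per library and lines through the group means. In all 9 panels the 24 h points lie near the control points and the 48 h points lie apart from both. For ANGPTL4 and STC1 every control point lies above every 24 h point. For genes named among the highest and lowest, the naming rule required that 24 h and 48 h values not overlap.

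HIF targets outside glycolysis rose in 21 of 26 tested members and none fell (median 0.53), against 16.8% and 17.0% of all genes. The list averaged 3.179, 3.103 and 3.202 on the log2 scale at 24 h and 3.832, 3.963 and 3.919 at 48 h, with control at 3.23 to 3.293. Beside ANGPTL4 and STC1, which head it, ADM, a vasodilator peptide, went from 5.29, 5.66 and 5.32 FPKM to 16, 18.8 and 20.3 FPKM (1.58 ± 0.10, control mean 6.26 FPKM). NDRG1, a stress-responsive protein, went from 7.91, 7.03 and 7.89 FPKM to 20.4, 26 and 24.6 FPKM (1.51 ± 0.09, control mean 8.82 FPKM). DDIT4, an inhibitor of mTORC1, rose by 1.02 ± 0.08 (79.0 to 161 FPKM), BNIP3, a mitophagy receptor, by 1.00 ± 0.12 (14.7 to 30.2 FPKM), the collagen hydroxylase gene P4HA2 by 0.92 and VEGFA, the main angiogenic factor, by 0.42 (15.6 to 21.3 FPKM). EGLN1, an oxygen sensor, and the members PLOD2, STC2 and LOX were among those not called (-0.04 to 0.25).

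Glycolysis genes rose in 16 of 23 tested members and fell in 1 (median 0.39), against 16.8% and 17.0% of all genes. Among the highest were a glucose transporter and the kinases that regulate phosphofructokinase. SLC2A3, which encodes the glucose transporter GLUT3, stood at 9.61, 9.51 and 10.0 FPKM at 24 h and at 23.4, 26.1 and 25.1 FPKM at 48 h, with a control mean of 10.5 FPKM (1.27 ± 0.05, adjusted p = 4.00e-06). PFKFB3, a kinase that makes the activator of phosphofructokinase, rose by 1.09 ± 0.05 (6.24 to 14.4 FPKM), ENO2 by 1.02 ± 0.10 (6.76 to 14.7 FPKM), PFKFB4 by 0.98, SLC2A1 by 0.74 and LDHA by 0.50 (140 to 197 FPKM). GAPDH (-0.03) and ENO1 (0.00), the most abundant members, were not called, and PGAM1 fell by 0.20.

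Windows of 2 HIF-list genes show the core letters of the hypoxia response element, ACGTG, in capitals on either strand. The letters are also part of the E-box CACGTG bound by other factors.
ANGPTL4 (chr19:8363905-8364004, plus strand): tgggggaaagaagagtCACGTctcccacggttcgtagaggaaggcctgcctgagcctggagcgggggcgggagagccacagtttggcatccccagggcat
BHLHE40 (chr3:4979240-4979339, plus strand): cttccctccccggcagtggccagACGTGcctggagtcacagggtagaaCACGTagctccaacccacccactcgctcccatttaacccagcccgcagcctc
ANGPTL4 held 1 match in the 250 bases before its start and BHLHE40, a repressor of the clock and of metabolism, held 4, of which 2 are shown. Of the 15 risen members with a promoter in the table, 10 held the letters (66.7%), against 18.7% of all promoters and 24.4% of those of tested protein-coding genes, so this short motif is common.

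Genes of cholesterol synthesis and uptake rose in 15 of 23 tested members and none fell (median 0.39), against 16.8% and 17.0% of all genes. The list averaged 2.789, 2.794 and 2.824 on the log2 scale at 24 h and 3.198, 3.172 and 3.208 at 48 h, with control at 2.839 to 2.879. STARD4, a sterol carrier, stood at 3.85, 3.63 and 4.42 FPKM at 24 h and at 8.47, 9.06 and 8.68 FPKM at 48 h, with a control mean of 4.87 FPKM (0.97 ± 0.06, adjusted p = 2.63e-05). INSIG1, which retains the SREBP regulators in the endoplasmic reticulum, rose by 0.96 ± 0.11 (4.82 to 10.3 FPKM). HMGCS1, an enzyme early in the pathway, rose by 0.58 (6.82 to 10.7 FPKM), as did the regulator gene SREBF2 (0.63). The letters of an SREBP site, TCACNCCAC on either strand, were found in 1 of the 10 risen members with a promoter in the table. That was SREBF2, and STARD4, INSIG1 and HMGCS1 held none. The share was 10%, against 0.875% of all promoters and 0.85% of those of tested protein-coding genes. The later change was higher than the earlier one in 13 of the 23 genes, against 7.51% of all genes. Genes of fatty acid synthesis rose in 9 of 16 and fell in 1 (median 0.25). LPIN1, a phosphatidate phosphatase, rose by 0.74 ± 0.05 and SCD, which desaturates fatty acids, by 0.44 (98.9 to 135 FPKM). FASN, the fatty acid synthase, stood at 21.8, 19.9 and 13.3 FPKM at 24 h and at 25.4, 26.6 and 24.2 FPKM at 48 h, with a control mean of 20.7 FPKM (0.47 ± 0.15, adjusted p = 0.0386). Its lowest value lay in the third 24 h library, without which FASN changed by 0.27 ± 0.07 (adjusted p = 0.0181), and its call was lost when any 1 of the 48 h libraries was left out.

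**Figure D4:**
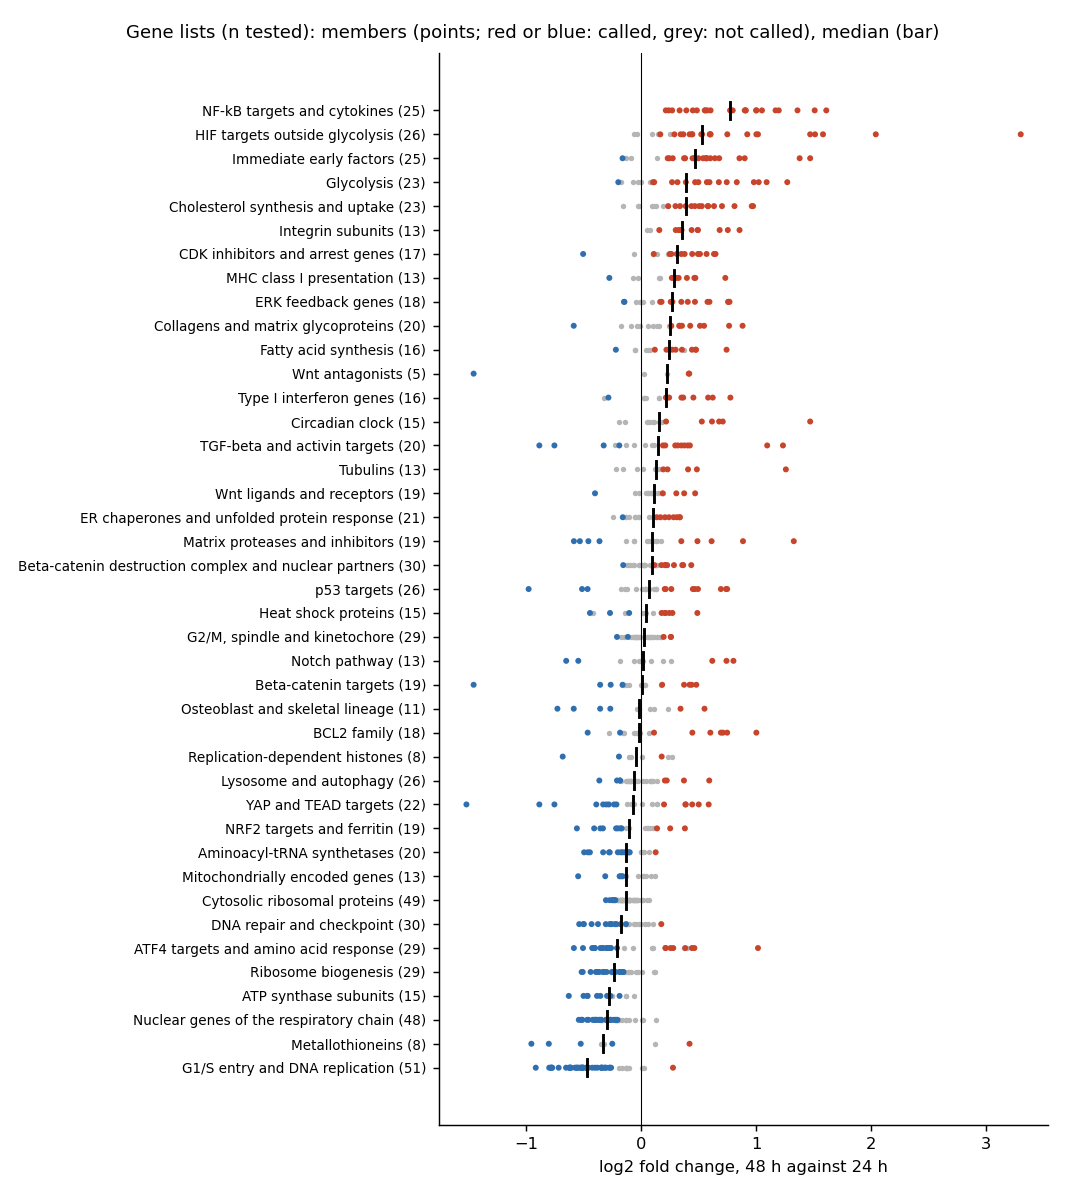
Log2 fold change from 24 h to 48 h for the tested members of each gene list (number tested in brackets), with red points for members that rose, blue for those that fell and grey for those not called, and a black bar at the list's median. The medians run from 0.77 for NF-kB targets and cytokines to -0.48 for G1/S entry and DNA replication.

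Genes of G1/S entry and DNA replication fell in 41 of 51 tested members and rose in 1 (median -0.48), against 17.0% and 16.8% of all genes. The list averaged 4.028, 4.057 and 4.007 on the log2 scale at 24 h and 3.647, 3.547 and 3.597 at 48 h, with control at 3.979 to 4.009. CCNE2, which partners CDK2 at the start of S phase, stood at 4.74, 5.86 and 4.62 FPKM at 24 h and at 2.56, 1.90 and 2.17 FPKM at 48 h, with a control mean of 4.97 FPKM (-0.92 ± 0.10, adjusted p = 0.000233). CDC6, which loads the replicative helicase, went from 15.0, 14.4 and 14.6 FPKM to 8.21, 7.74 and 8.29 FPKM (-0.79 ± 0.04, adjusted p = 1.15e-05, control mean 14.03 FPKM), and GINS3, a subunit of the active helicase, from 4.45, 5.07 and 4.99 FPKM to 2.20, 2.54 and 2.30 FPKM (-0.80 ± 0.06, control mean 4.42 FPKM). No value at 48 h reached a 24 h value in these 3 genes, which the naming rule required of CCNE2. CDC6 and GINS3 were named for the size of their changes, and the same held for 23.4% of all genes. In this list 36 of 51 genes had a later change below the earlier one, against 6.51% of all genes.

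Genes of several stages of replication fell. The phosphatase gene CDC25A, which activates CDK2, fell by 0.79 (14.3 to 7.87 FPKM), the sliding clamp PCNA by 0.78 (135 to 78.3 FPKM), the flap nuclease FEN1 by 0.78 (30.2 to 17.3 FPKM) and the activator E2F1 by 0.66 (18 to 11.1 FPKM). All 6 subunits of the MCM2 to MCM7 helicase fell, by 0.32 (MCM7) to 0.63 (MCM5). CCNA2 (0.01), LIG1 (0.03) and POLA1 (-0.13) were not called, and E2F7, a repressor among the E2F factors, rose by 0.28 (15.7 to 19.3 FPKM).

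Windows are shown for CDC25A and PCNA, the most fallen members with a promoter in the table that held the letters of an E2F site. These are TTTNNCGC on either strand, in capitals. GINS3 and CDC6, which fell slightly further, held none.
CDC25A (chr3:48188418-48188517, minus strand): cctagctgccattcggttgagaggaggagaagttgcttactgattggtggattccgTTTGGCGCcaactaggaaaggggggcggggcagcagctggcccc
PCNA (chr20:5126628-5126727, minus strand): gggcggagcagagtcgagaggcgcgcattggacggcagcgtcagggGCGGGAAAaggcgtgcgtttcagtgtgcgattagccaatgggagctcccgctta
The letters lay 37 bases before the start in CDC25A and 52 bases before it in PCNA. Of the 33 fallen members with a promoter in the table, 14 held them (42.4%), against 5.93% of all promoters and 9.43% of those of tested protein-coding genes.

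Few genes of the later cell cycle were called. Of 29 tested genes of G2/M, the spindle and the kinetochore, 3 rose and 2 fell, under the 16.8% and 17.0% of all genes. The list's median was 0.02. HMMR, which binds microtubules, rose by 0.26 ± 0.03, UBE2C, a ubiquitin enzyme of mitotic exit, by 0.26 ± 0.06, and CCNB1, the mitotic cyclin, by 0.20 (83.8 to 95.9 FPKM). Without the second 24 h library or the third 48 h library 1 of the 3 rises was called, and UBE2C was among those lost. TOP2A (0.11), CDK1 (-0.03), AURKA (-0.04) and PLK1 (0.09) were not called, and KIF11 (-0.12) and MAD2L1 (-0.21) fell, with neither called without the first or the second 48 h library. DNA repair genes fell in 13 of 30, above the 17.0% of all genes, and rose in 1 (median -0.18). The largest falls were those of the mismatch repair gene MSH6 (-0.54 ± 0.05, 18 to 12.1 FPKM), RBBP8 (-0.50 ± 0.04), which starts resection of broken ends, and XRCC2 (-0.50 ± 0.10). CHEK2 rose by 0.17. Replication-dependent histones gave 1 that rose and 2 that fell of the 8 tested on the list, too few to set against the shares of all genes. Without the third 24 h library none rose and 1 fell. In polyadenylated RNA most transcripts of these histones are not captured. H1-2 fell by 0.68 ± 0.11 (14.8 to 8.85 FPKM), and its change was -0.59 ± 0.10 without that library.

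CDK inhibitors and other arrest genes rose in 12 of 17 tested members and fell in 1 (median 0.31), against 16.8% and 17.0% of all genes. CCNG2, an atypical cyclin linked to arrest, stood at 4.19, 4.24 and 4.37 FPKM at 24 h and at 7.36, 7.17 and 7.21 FPKM at 48 h, with a control mean of 4.72 FPKM (0.65 ± 0.04, adjusted p = 1.96e-05). GADD45A, a stress sensor, rose by 0.63 ± 0.11 (32.6 to 50.9 FPKM), CDKN1A, which encodes p21, by 0.49 (34.7 to 49.2 FPKM), and CDKN1B, which encodes p27, by 0.31 (5.19 to 6.67 FPKM). The retinoblastoma relative RBL1, itself an E2F target, fell by 0.51 (12.6 to 8.58 FPKM), while RBL2 rose by 0.35. Of 26 tested p53 targets, 9 rose and 3 fell (median 0.07). The share that rose was above the 16.8% of all genes, and the share that fell was under their 17.0%. The BH3-only genes PMAIP1 (0.75 ± 0.07, 56.7 to 95.6 FPKM) and BBC3 (0.69, 3.76 to 6.70 FPKM) and TP53INP1 (0.74 ± 0.07) rose, whereas PLK2 fell from 5.90, 5.92 and 5.51 FPKM to 2.58, 2.29 and 2.43 FPKM (-0.98 ± 0.05, control mean 6.24 FPKM). MDM2, the main p53 feedback gene, rose by 0.20, and BAX (-0.04) and XPC (0.01) were not called.

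Among 18 tested BCL2 family genes, 7 rose and 2 fell, against 16.8% and 17.0% of all genes. Members that promote death and members that protect from it both rose: PMAIP1 and BBC3 on the first side, MCL1 (0.60) and BCL2A1 (0.71 ± 0.11, 16.4 to 27.4 FPKM) on the second. BCL2L1, which encodes BCL-XL, fell by 0.47 (15.1 to 10.7 FPKM), BCL2L11, which encodes BIM, fell by 0.18, and BCL2 (-0.01) was not called.

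Among genes of amino acid supply and tRNA charging, more fell than rose. Of 29 tested ATF4 targets, 15 fell and 8 rose (median -0.21), against 17.0% and 16.8% of all genes. The enzymes of serine synthesis were among those that fell: PSAT1 stood at 429, 434 and 480 FPKM at 24 h and at 306, 287 and 299 FPKM at 48 h, with a control mean of 419 FPKM (-0.59 ± 0.05, adjusted p = 0.00011), and PHGDH (-0.34, 397 to 314 FPKM) and PSPH (-0.43, 25.3 to 18.6 FPKM) fell with it. ATF4 itself fell by 0.27 (303 to 251 FPKM) and ATF5 by 0.51 ± 0.08. The 8 that rose included the mTORC1 inhibitor gene DDIT4 (1.02), the stress factor gene ATF3 (0.46), CHAC1 (0.44), which degrades glutathione, the C/EBP factor genes CEBPG (0.38) and CEBPB (0.26), the leucine sensor gene SESN2 (0.21) and the amino acid transporter gene SLC38A2 (0.21 ± 0.03, 140 to 162 FPKM). Other transporter genes fell, among them SLC7A11 (-0.36), SLC7A5 (-0.33) and SLC1A5 (-0.26). Of 20 cytosolic aminoacyl-tRNA synthetases, 13 fell and 1 rose (median -0.13), from WARS1 (-0.50 ± 0.03, 99.6 to 70.3 FPKM) to TARS1 (-0.10), and 8 fell when the second 48 h library was left out.

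Ribosome biogenesis genes fell in 19 of 29 tested members and none rose (median -0.24), against 17.0% and 16.8% of all genes. The spermidine synthase gene SRM (-0.52 ± 0.06, 31.9 to 21.9 FPKM), a MYC target placed in this list, NPM1 (-0.51 ± 0.05, 302 to 212 FPKM), the nucleolar chaperone, and NOP56 (-0.44 ± 0.03, 69.0 to 50.6 FPKM), a core protein of box C/D particles, fell most. NPM1 has processed copies in the genome that can take its reads. The ribosomal protein genes themselves gave 6 that fell and none that rose of 49, under the 17.0% of all genes. Their median was -0.14 with all libraries and -0.02 without the third 24 h library, when 5 fell and 1 rose. Without the first or the second 48 h library, 1 fell.

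Nuclear genes of the respiratory chain fell in 28 of 48 tested members and none rose (median -0.30), against 17.0% and 16.8% of all genes. Without the third 24 h library, 25 fell and 1 rose, with a median of -0.20. COX7B, a subunit of cytochrome c oxidase, stood at 49.1, 51.3 and 63.9 FPKM at 24 h and at 37.0, 34.9 and 39.3 FPKM at 48 h, with a control mean of 53.8 FPKM (-0.54 ± 0.10, adjusted p = 0.00289). Its highest value lay in the third 24 h library, yet no 48 h value reached any 24 h value, as in 23.4% of all genes. NDUFA4 (-0.52 ± 0.11) and UQCRQ (-0.52 ± 0.12) fell in the same way. The list averaged 4.751, 4.782 and 5.036 at 24 h and 4.563, 4.50 and 4.657 at 48 h, with control at 4.76 to 4.856, and 14 members fell without the first and 12 without the second 48 h library.

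ATP synthase subunits fell in 9 of 15 (7 without the third 24 h library) and none rose, against 17.0% and 16.8% of all genes. The largest fall was that of ATP5MC1 (-0.63 ± 0.11, 21.8 to 13.7 FPKM), a subunit of the proton-driven ring. Many of these genes are short. Protein-coding genes with under 1500 bases of exon gave 19 that rose and 116 that fell of 364 (median -0.17, or -0.11 without the third 24 h library), against 2068 and 1829 of 10392 longer genes (median 0.01). The part of exon length in these results was not tested. Of 13 mitochondrially encoded genes, 5 fell and none rose, against 17.0% and 16.8% of all genes. The number that fell was 4 without the third 24 h library, 3 without the first or the second 24 h or the third 48 h library, 2 without the first 48 h library and 1 without the second. MT-ND1, a subunit of complex I (chromosome M, 3307 to 4262), averaged 3209 ± 151 FPKM at 24 h and 2192 ± 82.5 FPKM at 48 h (SD, n = 3), with a control mean of 2655 FPKM, a change of -0.55 ± 0.06 (adjusted p = 0.000194), whereas MT-CO1 (-0.03) and MT-CYB (0.12) were not called.

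**Figure D5:**
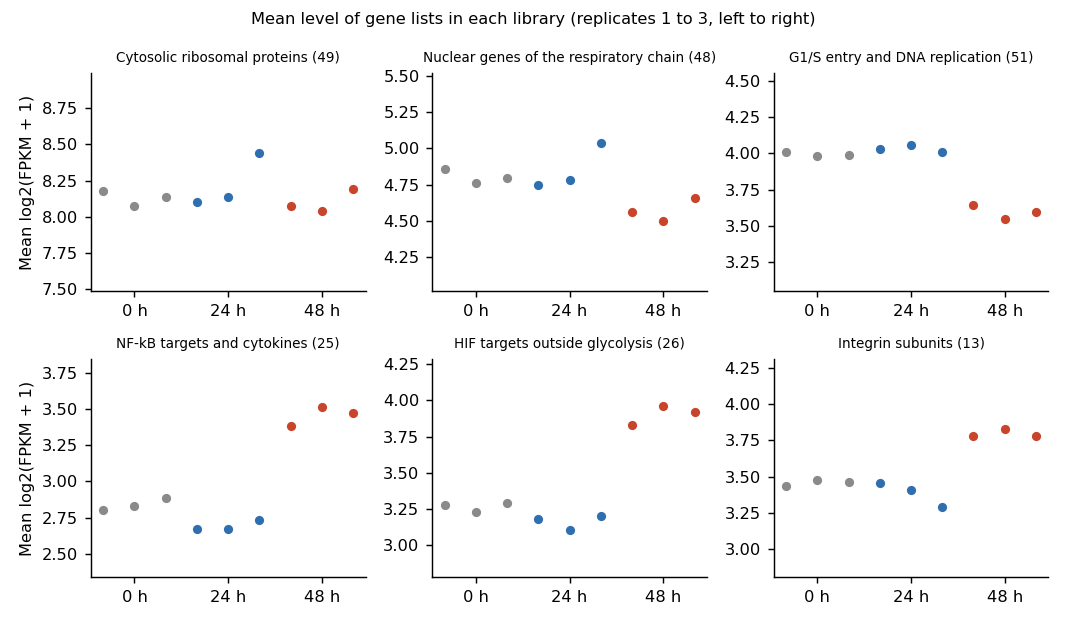
Mean log2(FPKM + 1) of 6 gene lists in each library (number of tested members in brackets), grey for control, blue for 24 h and red for 48 h. The third 24 h library stands high in the ribosomal protein and respiratory chain panels, and the NF-kB, HIF, integrin and G1/S panels separate the 48 h libraries from all others.

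Targets of YAP and TEAD, the effectors of the Hippo pathway, moved both ways, with 6 that rose and 9 that fell of 22 tested (median -0.08), against 16.8% and 17.0% of all genes. The fallen members were ANKRD1 (-1.52), THBS1 (-0.89 ± 0.06, 8.45 to 4.10 FPKM), CCN2 (-0.76 ± 0.06), AJUBA (-0.39), CCN1 (-0.33, 52.4 to 41.4 FPKM), F3 (-0.30), AXL (-0.28), DLC1 (-0.24) and AMOTL2 (-0.22). Targets that rose were NUAK2 (0.59 ± 0.09), GADD45B (0.44), NT5E (0.39) and AMOTL1 (0.38). CCN2, a matrix-associated signalling protein, stood at 144, 138 and 160 FPKM at 24 h and at 85.4, 85.1 and 89.2 FPKM at 48 h. Its control mean was 161 FPKM. The groups did not overlap, and 23.4% of all genes had every 48 h value below every 24 h value. The effector genes YAP1 (0.20) and WWTR1 (0.50, 42.7 to 60.8 FPKM), which the list also holds, rose too. Windows of ANKRD1 and THBS1 show the TEAD letters GGAATG in capitals.
ANKRD1 (chr10:90921163-90921262, minus strand): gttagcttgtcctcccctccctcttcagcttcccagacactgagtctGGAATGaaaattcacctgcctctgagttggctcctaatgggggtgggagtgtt
THBS1 (chr15:39580979-39581078, plus strand): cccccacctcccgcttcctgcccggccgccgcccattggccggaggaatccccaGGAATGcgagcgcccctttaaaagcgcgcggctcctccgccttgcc
Of the 7 fallen members with a promoter in the table, 3 held these letters on either strand (42.9%), against 11.9% of all promoters.

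Targets of TGF-β and activin rose in 10 of 20 tested members and fell in 4 (median 0.15), against 16.8% and 17.0% of all genes. When the first or the second 48 h library was left out, 6 rose. INHBA, which encodes the activin A subunit, stood at 2.67, 3.07 and 2.70 FPKM at 24 h and at 7.80, 8.42 and 7.69 FPKM at 48 h, with a control mean of 3.19 FPKM (1.23 ± 0.06, adjusted p = 1.01e-05). PMEPA1, a feedback inhibitor of TGF-β signals, rose by 1.10 ± 0.05 (9.09 to 20.6 FPKM) and TGFB1 by 0.40, while CCN2 and THBS1, which are also YAP targets, and the inhibitor SMAD7 (-0.33) fell.

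Integrin subunits rose in 11 of 13 tested members and none fell (median 0.35), against 16.8% and 17.0% of all genes. Integrins are the surface receptors for matrix. ITGB3 stood at 3.68, 3.10 and 3.58 FPKM at 24 h and at 6.95, 7.21 and 6.98 FPKM at 48 h, with a control mean of 3.83 FPKM (0.86 ± 0.06, adjusted p = 3.28e-05). ITGA2, which binds collagen, went from 62.8, 59.4 and 48.0 FPKM to 97.0, 101 and 89.3 FPKM (0.75 ± 0.09, control mean 65.4 FPKM), and ITGA5, which binds fibronectin, from 15.8, 14.2 and 13.0 FPKM to 22.6, 24.4 and 23.8 FPKM (0.68 ± 0.07, control mean 14.5 FPKM). The lowest values of ITGA2 and ITGA5 lay in the third 24 h library, and without that library 11 members still rose. The groups did not overlap in any of the 3 genes, which were named for the size of their changes. Over all genes, 23.8% had every 48 h value above every 24 h value.

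Collagens and matrix glycoproteins rose in 9 of 20 and fell in 1 (median 0.25), or rose in 9 and fell in 3 without the third 24 h library (median 0.13). The chains of collagen VI rose together, COL6A2 by 0.88 ± 0.07 (22.9 to 43.0 FPKM), COL6A3 by 0.77 ± 0.14 (29.9 to 50.8 FPKM) and COL6A1 by 0.51 (16.8 to 24.2 FPKM). SPARC, a matrix protein abundant in bone, stood at 43.3, 41.9 and 43.3 FPKM at 24 h and fell to 28.3, 27.6 and 28.5 FPKM at 48 h (-0.59 ± 0.04, control mean 41.9 FPKM). Of 19 tested matrix proteases and inhibitors, 5 rose and 4 fell, not far from the 16.8% and 17.0% of all genes. MMP9, a gelatinase, went from 1.61, 1.40 and 1.64 FPKM to 5.01, 5.33 and 5.90 FPKM (1.33 ± 0.09, control mean 2.31 FPKM), and MMP14, a membrane-bound collagenase, rose by 0.89 ± 0.07 (48.6 to 90.3 FPKM), while the inhibitor TIMP3 (-0.59) and the plasminogen activators PLAU (-0.36) and PLAT (-0.46) fell. PLAUR, the receptor of PLAU, rose by 0.35.

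Of 13 tested Notch genes, 3 rose and 2 fell, near the 16.8% and 17.0% of all genes. HES1 (0.80 ± 0.04, 23.3 to 41.3 FPKM), a repressor and classical target, and the ligand genes JAG1 (0.74 ± 0.07) and DLL1 (0.62) rose, while the target NRARP (-0.65 ± 0.10, 3.87 to 2.11 FPKM) and the glycosyltransferase gene LFNG (-0.55) fell. Clock genes rose in 6 of 15 and none fell, with BHLHE40, NR1D1 (0.71 ± 0.07, 3.78 to 6.84 FPKM) and BHLHE41 (0.68 ± 0.06) at the head. BMAL1 (-0.19) and CLOCK (0.11), which drive the loop, were not called. No hour of the day is given for the collections.

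Stress lists outside hypoxia held members that rose and members that fell. Over all genes 16.8% rose and 17.0% fell. Chaperones of the endoplasmic reticulum rose in 8 of 21 and fell in 1 (median 0.10), 5 without the second 48 h library, with CALR highest (0.34 ± 0.04, 101 to 128 FPKM), while HSPA5, the usual readout of the unfolded protein response, was not called (-0.03). Of 15 heat shock genes, 6 rose and 3 fell. The small heat shock gene HSPB1 rose by 0.49 ± 0.08, and the fallen members HSPA9 (-0.45 ± 0.03) and HSPD1 (-0.27 ± 0.05) encode mitochondrial chaperones. Of 19 NRF2 targets and ferritin genes, 3 rose and 8 fell (4 without the second 48 h library), with a median of -0.11, and without the third 24 h library 6 fell and the median was -0.02. They were led by FTL (-0.56 ± 0.06, 677 to 458 FPKM), the ferritin light chain, whose copies make its level uncertain, and TXN (-0.41 ± 0.10). Both were highest in the third 24 h library, and without it FTL changed by -0.50 ± 0.04 and TXN by -0.27 ± 0.04. Metallothioneins and their regulators gave 4 that fell and 1 that rose of 8, with and without the third 24 h library. MT1E fell from 77.3 to 39.2 FPKM and MT1M from 2.99 to 1.28 FPKM, both with near-identical relatives, while the zinc exporter gene SLC30A1 rose by 0.42.

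Lysosome and autophagy genes gave 4 that rose and 4 that fell of 26, near or under the shares over all genes, and leaving out 1 library left as few as 1 that rose (24 h replicate 2 or 48 h replicate 3) and 2 that fell (24 h replicate 1, 48 h replicate 2 or 3). NPC1, which exports cholesterol from the lysosome, rose by 0.59 ± 0.05 (11.8 to 18.3 FPKM). Of 13 tubulin genes, 5 rose and none fell, against 16.8% and 17.0% of all genes. TUBA1A stood at 18.8, 17.3 and 19.2 FPKM at 24 h and at 46.1, 42.2 and 48.1 FPKM at 48 h, with a control mean of 17.4 FPKM (1.26 ± 0.08, adjusted p = 1.97e-05), and its reads may be shared with other tubulin genes.

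Markers of the osteoblast lineage were in part present. Of 19 found in the table, 12 reached 1 FPKM in some library, while SP7, ALPL, BGLAP and COL1A1 stayed under that level in all 9. The summed level of the list was 410.2 to 418 FPKM at 24 h and 353.9 to 372.3 FPKM at 48 h, most of it ATF4. Of 11 tested, 2 rose and 4 fell. The share that rose was near the 16.8% of all genes, and the share that fell was above their 17.0%. SPP1, which encodes osteopontin, stood at 2.91, 2.91 and 2.61 FPKM at 24 h and at 1.42, 1.18 and 1.28 FPKM at 48 h, with a control mean of 2.53 FPKM (-0.73 ± 0.07), and RUNX2, SPARC and ATF4 fell. BMP2, a growth factor that drives bone formation, rose by 0.34 ± 0.05 (3.10 to 4.19 FPKM), and SOX9, a factor of cartilage, rose by 0.55 ± 0.04 (35.7 to 52.8 FPKM).

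Markers of other cell types moved to some extent with time. Epithelial markers summed to 189.9 to 216.9 FPKM at 24 h and 142.2 to 156.2 FPKM at 48 h. Of 4 tested, KRT18, KRT8 and EPCAM fell, too few to set against the 17.0% of all genes that fell. Of the 10 found, 5 stayed under 0.5 FPKM in every library. Endothelial markers summed to 14.14 to 15.03 FPKM at 24 h and 19.03 to 20.42 FPKM at 48 h. Most of that sum was TIE1, which rose by 0.40 ± 0.04 (12.1 to 16.3 FPKM). ERG, the other member tested, was not called (0.06) and stood at 1.67 to 1.94 FPKM in the 6 libraries. PECAM1, under the filter, lay at 0.215 to 0.280 FPKM at 24 h and 0.611 to 0.699 FPKM at 48 h. Its groups did not overlap, and 23.8% of the genes tested had every 48 h value above every 24 h value. Of the 9 found, 5 stayed under 0.1 FPKM: CDH5, VWF, KDR, TEK and CLDN5. Leukocyte markers summed to 1.30 to 2.37 FPKM at 24 h and 0.988 to 1.22 FPKM at 48 h. None of the 12 found passed the filter, and 10 stayed under 0.5 FPKM in all 9 libraries. CD3D stood at 0.690, 1.14 and 1.72 FPKM at 24 h and at 0.231, 0.398 and 0.384 FPKM at 48 h, NKG7 reached 0.533 FPKM in a control library, and PTPRC, which marks all leukocytes, reached 0.0145 FPKM at most. The single tested markers of muscle, MYH3 (-0.35 ± 0.10), and of nerve cells, SNAP25 (-0.41 ± 0.11), fell from low levels. The call of MYH3 was lost in 7 alternatives, among them the replicate block and leaving out the first or second library of either time, and that of SNAP25 with no filter or without the first 48 h library. In bulk RNA, fewer cells of a type and less RNA per cell cannot be told apart, and the part of these markers in the other results was not tested.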

How the data were processed

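Polyadenylated RNA of 143B cells was sequenced in 9 paired-end libraries. The authors deposited 1 table of FPKM for 36810 genes, with replicates kept apart and 0 columns of other samples. The submitters' processing notes name the build hg38 and the tools HISAT2, Subread, featureCounts and DESeq2. Versions, settings, strandedness and the gene annotation were not given in the sources used here. Depth was worked out from the values with exon lengths of GENCODE release 29 (GRCh38): for 20926 genes (58.8% of 35585 found there) all values were whole fragments to within 0.001, and 1 fragment on 1 kilobase was worth 0.0437 to 0.0545 FPKM.

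For the tests, limma 3.58.1 (R 4.3.3) fitted log2(FPKM + 1) in all 9 libraries with a mean for each group (eBayes with a trend, 6 residual degrees of freedom), after the filter of 1 FPKM in 3 of the 6 libraries compared. Two-sided p-values were adjusted by Benjamini and Hochberg's method over 13142 genes, and genes were called under 0.05. The fit was tested on simulated data first. The labels do not state that replicate numbers pair the libraries, and no block was used in the main fit.

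Named genes were the 12 highest and 12 lowest fold changes among called protein-coding or long noncoding genes with at least 2 FPKM in the higher group and no overlap between groups, up to 3 called members of each list by size of change, and DKK1, CTNNB1, AXIN2, LEF1, MYC and CCND1. Other list members are named as examples, chosen with their values seen. The 46 lists (1042 genes, 20 not found in the table) and the comparison were chosen with earlier results of these data known, and lists are described by counts and medians beside those of all genes, without a test. Promoters are from RefSeq (GRCh38.p14), matched by symbol. Alternatives were other pseudocounts (0.1 and 0.5), filters (none and 5 FPKM), scalings, weights and sets of libraries. Counts for each list with 1 library left out, and a fit to protein-coding genes with at least 1500 bases of exon, were added after seeing the data. A few named genes are not reported here.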

Additional observations from a re-analysis of the deposited data

How the results depend on the processing

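Counts of genes that rose (2207) and fell (2236) were recomputed under 21 alternatives. Pseudocounts of 0.1 or 0.5, dropping the filter or raising it to 5 FPKM, scaling by median of ratios or quantiles, no trend, array weights and a fit to the 6 libraries alone gave 1545 to 2949 that rose and 1604 to 3236 that fell. Leaving out 1 library gave 1522 to 2238 and 1516 to 2399, lowest without 48 h replicate 2 for both. Asking also for a log2 fold change of at least 1 either way left 52 and 14 genes. Genes called with and without an alternative kept their direction. The 1843 genes whose later and earlier changes differed became 965 with no filter, where 36810 genes were tested, and 4132 with array weights, and 986 (without 24 h replicate 2) to 1700 (without 24 h replicate 3) with 1 library left out; without control replicate 2 or 3 or 48 h replicate 2 the count was 1174, 1170 and 1100. The causes were not tested. Correlations of deviations between same-numbered 24 h and 48 h libraries were 0.03, 0.15 and 0.26. Differently numbered libraries were not compared, so these values cannot settle whether replicate numbers pair the groups. With a replicate block, 2172 rose, 2238 fell and 1727 differed between the changes. CCND1, not called at 0.01, was at -0.0317 with array weights, and with 1 library left out it ran from -0.0355 (without 24 h replicate 3) to 0.0332 (without 24 h replicate 2), with -0.0019 without 48 h replicate 2. MT-ND1 and MT-ND3 went to 0 with quantile normalization, which sets the top ranks equal, and were not called there. Among protein-coding genes with at least 1500 bases of exon, 2332 rose and 2075 fell. CTNNB1 was called higher with quantile normalization and array weights. The DKK1 call held under the 16 alternatives in which single genes were followed (adjusted p up to 0.000147). Calls of FASN, ULK1, UBE2C, H2BC21, H2BC12, MT-ATP6, MT-ND3, MAD2L1, RPL27, RPL24, MYH3, SNAP25, TXN, ATP5ME and H2AC20 were lost under some. Low genes rest on few fragments, which limits what can be seen near 1 FPKM.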

Other observations

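Several genes outside the lists also moved between 24 h and 48 h, none as far as the 12 highest or the 12 lowest named genes. They were chosen after their values were seen, and no explanation was tested. Several are long noncoding RNAs. MIR210HG, the host transcript of a hypoxia-induced microRNA, stood at 1.02, 0.975 and 1.14 FPKM at 24 h and at 3.80, 4.18 and 3.86 FPKM at 48 h (1.27 ± 0.12, adjusted p = 0.000119, control mean 1.33 FPKM). Its groups did not overlap, and 23.8% of all genes had every 48 h value above every 24 h value. The microRNA itself was not measured by this library type. LUCAT1, a stress-induced transcript, went from 0.923, 0.770 and 0.788 FPKM to 3.26, 4.02 and 3.33 FPKM (1.31 ± 0.08, control mean 1.24 FPKM), and MIR3142HG, the host of a pair of microRNA genes, from 4.22, 3.21 and 4.55 FPKM to 9.98, 12 and 10.4 FPKM (1.25 ± 0.12, control mean 4.74 FPKM). NKILA, an NF-kB-interacting transcript, rose by 0.64 ± 0.08 (1.47 to 2.82 FPKM). In the other direction, SFTA1P fell by 0.73 ± 0.07 (2.43 to 1.07 FPKM) and VPS9D1-AS1 by 0.71 ± 0.06 (8.01 to 4.52 FPKM). Antisense transcripts cannot be told from their partners where counting is not stated to use strand.

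Among protein-coding genes, ESM1, a secreted proteoglycan of endothelial and tumour cells, was the most abundant of those that about doubled, at 166, 167 and 195 FPKM at 24 h and 352, 369 and 365 FPKM at 48 h (1.04 ± 0.06, control mean 195 FPKM). The guidance genes SEMA4B (1.29 ± 0.06, 4.0 to 11.2 FPKM) and NRP2 (1.24 ± 0.08, 7.49 to 19.0 FPKM) rose, as did CEBPD (1.22 ± 0.11, 3.77 to 10.1 FPKM), an inflammatory transcription factor, IRAK2 (1.21 ± 0.08, 5.22 to 13.3 FPKM), a kinase of interleukin 1 receptor signalling, and BCL3 (1.03 ± 0.11, 2.25 to 5.62 FPKM), an NF-kB cofactor. LIPG, an endothelial lipase, rose by 1.14 ± 0.04 and PPP1R3B, a subunit that directs a phosphatase to glycogen, by 1.15 ± 0.06. Genes that fell included SKP2, which targets the p27 protein for destruction (-0.68 ± 0.05, 7.22 to 4.14 FPKM), and the matrix protein gene EFEMP1 (-0.74 ± 0.06, 9.34 to 5.21 FPKM). The mitochondrial import gene TIMM10 fell too (-0.78 ± 0.09, 37.1 to 21.2 FPKM), and its highest value again lay in the third 24 h library.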
